A study of Columba livia with 9 samples.

Results

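The 150 mRNAs described here had a lower relative level in the bursa of Fabricius (BF) of 1-day pigeon squabs than at 13 days. At 26 days they were at about the same relative level as at 13 days. They were chosen from 13072 listed mRNAs by their own values. The relative level S of an mRNA is its TPM (a share of all transcripts, corrected for their length) divided by the median TPM of that library, taken over the 10027 mRNAs above 0.5 TPM in all 9 libraries. An mRNA was kept where its mean over the 9 libraries was at least 5 TPM, where S in each of the 6 older libraries lay above the highest S at 1 day, and where the log2 ratio of the 26-day to the 13-day mean lay within 0.5 of 0. Of the 8022 mRNAs with a mean of at least 5 TPM, 1064 met these conditions, and the 150 with the highest ratio of the older to the 1-day mean S were taken. Levels, order and lack of overlap among the stages therefore follow from the choice and are given as a description, with no test.

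The birds were untreated female White King pigeons (Columba livia). Total BF RNA of 9 squabs, 3 at each age, was depleted of ribosomal RNA and sequenced. The age groups are called 1D, 13D and 26D after the squab's age in days, and every library came from a different squab. Whole organs were used, so that more cells of a type and more RNA per cell cannot be told apart.

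The BF is a sac of lymphoid follicles at the bird's cloaca in which B cells multiply and change their immunoglobulin genes, in the chicken mostly by gene conversion. DNA repair proteins, among them uracil glycosylase, take part in that process. B cells are kept alive and guided by the B cell receptor, whose CD79 chains pass the signal to the kinase SYK, the adaptor BLNK and the lipase PLCG2, and by chemokine receptors that place cells within follicles.

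Of the members, 134 had a gene symbol, 14 only a provisional LOC symbol and 2 only an identifier, and 148 were above 0.5 TPM in all 9 libraries. The mean S of the older squabs was 2.01 to 43.2 times the mean at 1D, with a median of 2.45, and 12 members stood above 4-fold. The median ratio to 1D was 2.42 at 13D and 2.48 at 26D. The members spanned 5.09 to 395 TPM (median 32.0), 29 of them over 100 TPM and 23 under 10. By role, chosen after the values were seen, 16 belonged to the antigen receptor and its signalling, 6 to signalling best known from T cells, 14 to cytokines, receptors and cell death, and 14 to transcription and chromatin. A further 13 act in DNA repair and replication, 7 in cell division, 12 in actin, adhesion and small GTPases, 5 in glycosylation and 12 in membrane traffic, which leaves 51 others.

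**Figure D1:**
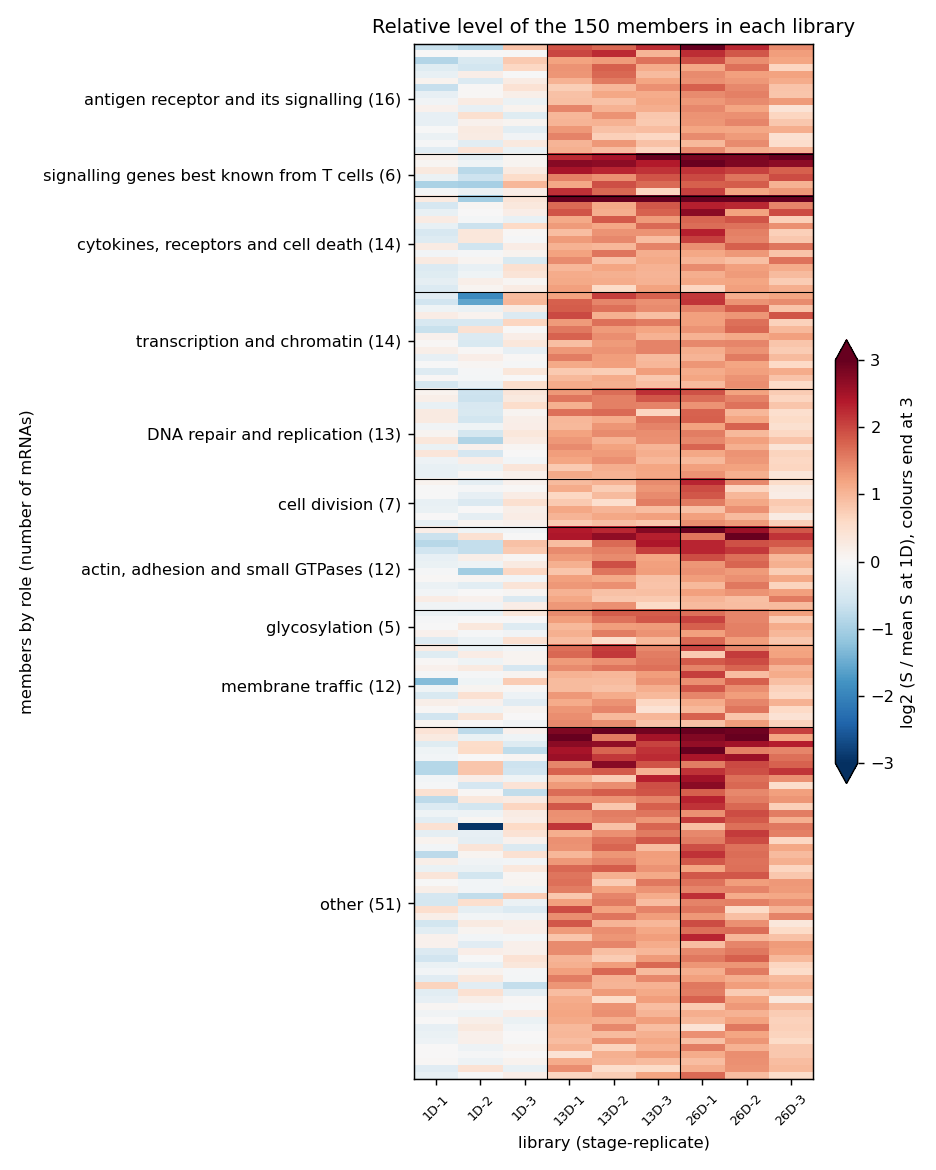
Heat map of the 150 members (rows, grouped by role with the number of mRNAs) in the 9 libraries (columns, stage and replicate), coloured by log2 of S over the member's mean S at 1D, with colours ending at 3 in either direction. The 6 older libraries are red in every row, palest on the whole in 26D replicate 3, as the selection of members requires for the sign but not for the shade.

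The deposited TPM of libraries are not on one footing. Median TPM of the mRNAs found in all libraries ran from 10.8 to 19.9 across the 1D and 13D libraries, and was 5.95, 11.9 and 12.3 in 26D replicates 1 to 3. A single lncRNA, G17924, led the lncRNAs in every library and took 13.7% to 38.9% of all TPM, most in 26D replicate 1. The mRNAs as a whole shifted by a median log2 fold change of -0.52 at 26D and 0.00 at 13D from 1D where TPM were left unscaled, and by 0.02 and 0.00 where they were scaled. In TPM as deposited, 43 of the 150 members still had every older library above every 1D library, as did 1.18% of all mRNAs with a mean of at least 5 TPM (95 of 8022). All conditions were met by 25 members, against 0.885% of those mRNAs, and 18 members failed only on the ratio of 26D to 13D. With median-of-ratios factors in place of library medians, 144 met them. The members are thus higher relative to the other mRNAs of a library, while in deposited TPM the older and the 1D libraries of most members overlap.

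In limma tests on all mRNAs (log2 of scaled TPM with 0.5 added, adjusted p under 0.05 and a log2 fold change over 1), 121 of the 150 members were called higher in 13D vs. 1D, where 1.97% of all mRNAs were. In 26D vs. 1D, 82 were called higher, against 1.47% of all mRNAs. Both comparisons called 69 of them, 52 were called at 13D only, 13 at 26D only and 16 in neither, and none was called lower. The choice of members used both contrasts and their shared 1D libraries, so nothing is read from these counts. Libraries were also left out in turn, and only those that changed a count by the largest ratio are listed here. With others left out the ratio was smaller, and at both ages the count could rise above that with all libraries. The count at 13D was 49 without 1D replicate 1 (0.688% of all mRNAs called higher) and 39 without 13D replicate 1 (0.574%). It was 21 without 13D replicate 2 (0.283%) and 52 without 13D replicate 3 (0.734%). The count at 26D was 3 without 1D replicate 1 (0.0459%), 52 without 1D replicate 2 (1.22%), 4 without 26D replicate 1 (0.0841%) and 3 without 26D replicate 2 (0.0306%). With TPM as deposited it was 13 (0.513%).

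**Figure D2:**
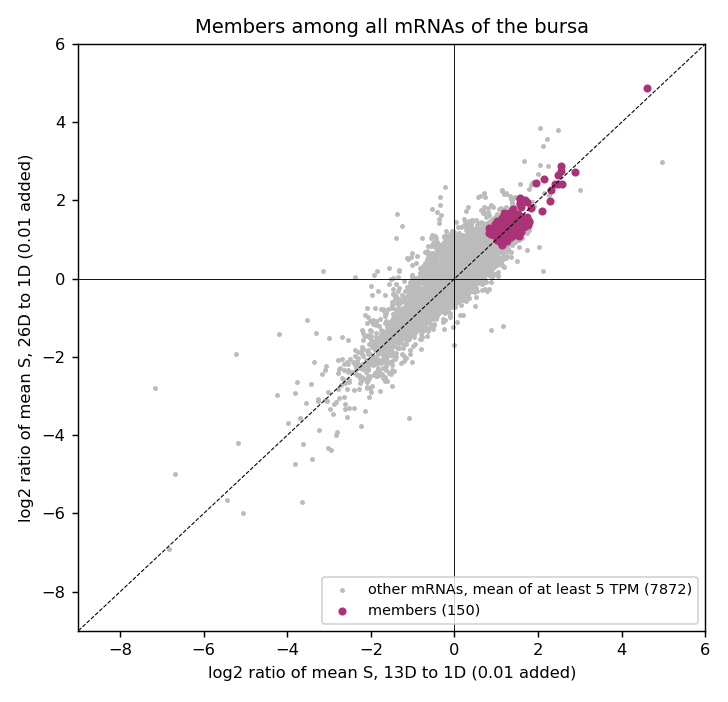
Scatter plot of the log2 ratio of mean S at 13D to 1D (horizontal) against 26D to 1D (vertical), 0.01 added to each mean, for the 150 members (purple) and the other 7872 mRNAs with a mean of at least 5 TPM (grey), with a dashed line where both ratios are equal. The members lie close to the dashed line at the upper right, and IL12RB2 stands far along it.

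The members differed in how well the groups were separated. The lowest older S divided by the highest 1D S had a median of 1.43 over the members, from 1.00 for SGO1 to 22 for IL12RB2. It was above 2 for 14 members, among them PRKCQ (4.90), THEMIS (4.26), RBM24 (3.13), ACTR3B (3.13), TAGAP (2.82), FNDC5 (2.79) and NEBL (2.23). It was under 1.1 for 19. At the lower limit of the choice, ASPM and MITD1 came in last with a log2 ratio of 1.01 each, and ARHGAP25 and WDR91, at 1.01 each, were the nearest left out.

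IL12RB2, the signalling chain of the interleukin 12 receptor, had by far the highest ratio. Its S was 0.0192, 0.00774 and 0.0205 in 1D replicates 1 to 3, then 0.675, 0.728 and 0.452 at 13D, and 0.749, 0.675 and 0.823 at 26D. The 1D libraries were all under 0.5 TPM, at 0.381, 0.0883 and 0.302 TPM, while the older ones ran from 4.46 to 13.0 TPM. The ratio to 1D was 39.1 at 13D and 47.4 at 26D, but with so little signal at 1D and no read counts its size is poorly determined. IL12RB1, the chain with which it forms the receptor in mammals, is no member and stayed at an S of 0.0879 or less in all libraries.

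Of the 6 members known best from T cell signalling, 3 were among the 12 with the highest ratio. THEMIS, an adaptor needed for thymocyte selection in mice, had S of 0.207, 0.154 and 0.197 at 1D, 0.880, 1.03 and 1.52 at 13D, and 1.34, 1.32 and 1.63 at 26D. PRKCQ, protein kinase C theta, which works below the T cell receptor in mammals, read 0.232, 0.204 and 0.237 at 1D, 1.49, 1.43 and 1.16 at 13D, and 1.74, 1.55 and 1.44 at 26D. Both were far from overlapping, and their 1D libraries lay closely together. TAGAP, a GTPase-activating protein of activated T cells, had its highest values at 13D (2.33, 2.05 and 1.89), slightly lower ones at 26D (1.89, 1.72 and 1.45) and 0.513, 0.239 and 0.504 at 1D. The remaining 3 were the tyrosine phosphatase PTPN7, the adhesion receptor CRTAM and the TEC-family kinase TXK, at 3.33, 3.06 and 3.05 times 1D.

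Other T cell markers were measured beside these genes. Of the T cell list of 16 genes, 12 were measured, THEMIS was the only one called in either comparison, and CD3E, CD3D and ZAP70 were not matched by symbol. Without THEMIS, which was chosen by its values, the summed S of the other 11 was 1.74 to 2.51 at 1D, 1.53 to 2.47 at 13D, and 3.45, 1.74 and 8.07 in 26D replicates 1 to 3. The costimulatory receptor CD28 was at about the level of THEMIS at 13D and 26D, but above it at 1D. It read 0.470, 0.326 and 1.30 at 1D, 0.988, 0.635 and 1.56 at 13D, and 1.83, 0.857 and 1.25 at 26D. The adhesion receptor CD2 and the protease GZMA were highest in 26D replicate 3, at 1.33 and 2.75. The kinase LCK read 0.0302 to 0.139 over all 9 libraries, and the coreceptor gene CD8A 0.0356 or less in 8 libraries and 0.212 in 26D replicate 3. Such values lie near the floor: LCK was under 0.5 TPM in 2 libraries and CD8A in 6. CD5 and CD6 of the same list were under it in 8, so their lack of a call says little. The part of T cells in the members' levels was not tested.

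**Figure D3:**
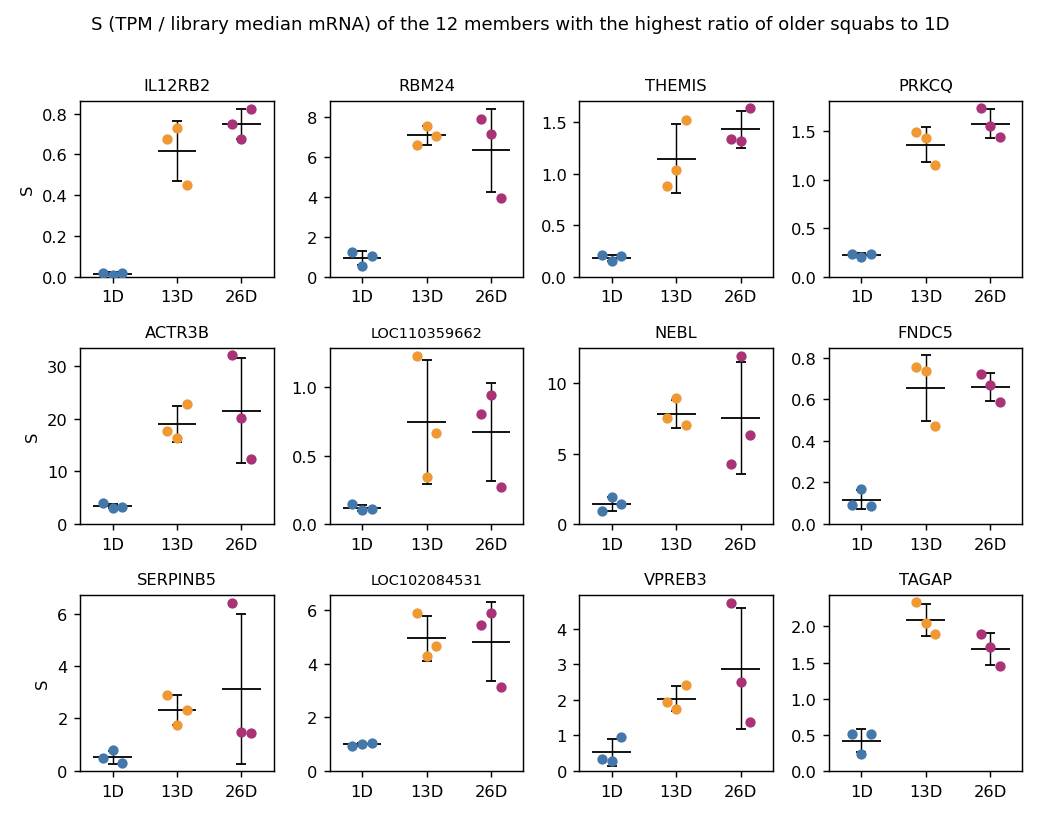
S in each library (points, by stage) with the mean (long bar) and SD (whiskers, n = 3) for the 12 members with the highest ratio of the older squabs to 1D, each panel on its own linear scale from 0. THEMIS and PRKCQ show tight 1D groups far below the older ones. The 1D points of IL12RB2 lie near 0, all under 0.5 TPM, where the linear scale hides their spread. SERPINB5 and VPREB3 owe their high 26D mean to 26D replicate 1.

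Among the 16 members of the antigen receptor and its signalling, ratios to 1D ran from 2.07 to 4.69, with a median of 2.25. CD79B, the signalling chain of the B cell receptor and among the most abundant members (343 TPM on average), had S of 8.95, 15 and 19.7 at 1D, 24.4, 28.8 and 37.7 at 13D, and 50.4, 39.6 and 26.2 at 26D. The 1D squabs differed from each other by more than the highest of them did from the lowest older squab. CD79B was called in neither comparison, with log2 fold changes of 1.11 at 13D and 1.43 at 26D. VPREB3, which associates with immunoglobulin chains in early B cells, had the highest ratio of this group, 4.69. It read 0.328, 0.288 and 0.953 at 1D, 1.94, 1.73 and 2.42 at 13D, and 4.73, 2.5 and 1.39 at 26D, so that 26D replicate 1 held the top value and replicate 3 the lowest older one.

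The adaptor BLNK links SYK to PLCG2, and all of them were members. BLNK read 7.13, 9.19 and 8.89 at 1D, 17.1, 17.3 and 14.4 at 13D, and 20.9, 23.3 and 14.7 at 26D. SYK read 5.79, 7.77 and 6.03 at 1D, 18.4, 10.8 and 10.1 at 13D, and 17.5, 15.8 and 8.95 at 26D. PLCG2 read 4.31, 7.15 and 3.96 at 1D, 10.3, 13.1 and 8.93 at 13D, and 13.1, 13.3 and 8.03 at 26D. In all of these genes 1D replicate 2 was the highest 1D library, and SYK and PLCG2 had their lowest older value in 26D replicate 3.

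Other steps of the same pathway were in the module. PTPRC (CD45), the phosphatase that keeps Src-family kinases active in leukocytes, averaged 313 TPM with S of 11.3, 19.0 and 12.4 at 1D, 29.9, 26.9 and 22.1 at 13D, and 38.2, 30.6 and 28.8 at 26D. PIK3CD, the lymphocyte phosphoinositide kinase, was 2.53 times its 1D level, but its lowest older value (2.53, in 26D replicate 3) was close to its highest 1D value (2.47). TEC, a kinase of the BTK family, was flat at 1D (0.681, 0.685 and 0.672) and 1.37 to 3.20 in the older squabs. RASGRP1, which turns on Ras after receptor binding, read 1.04, 1.31 and 0.992 at 1D, 2.1, 2.04 and 2.49 at 13D, and 2.75, 3.00 and 2.70 at 26D. It was among only 3 members, with DOCK10 and CHGB, in which every 26D library also lay above every 13D library. NFATC1, a calcium-dependent transcription factor of the pathway, was at 2.51 times 1D.

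The remaining members of this group, named after their values were seen, were the adaptors GRAP (2.76 times 1D) and SHC4 (2.42), the ubiquitin ligase adaptor KLHL6 (2.26), which mice need for germinal centres, the GTPase RHOH (2.21), the phosphatase PTPRJ (2.14) and the kinase PRKD3 (2.08). GRAP was uneven at 1D, with S of 0.697, 0.940 and 2.24.

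**Figure D4:**
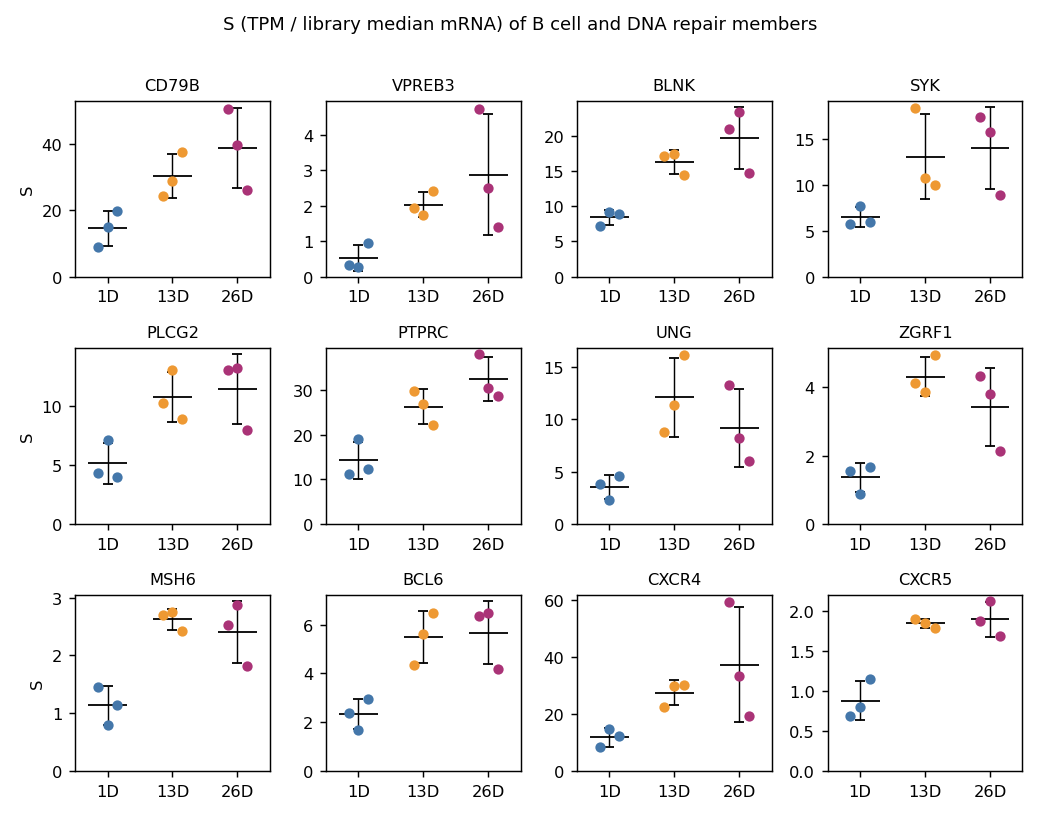
S in each library (points, by stage) with the mean (long bar) and SD (whiskers, n = 3) for 12 members of B cell receptor signalling, DNA repair, transcription and chemokine reception, each panel on its own linear scale from 0. In CD79B, VPREB3, PTPRC and CXCR4 26D replicate 1 is the highest library, and in every panel 26D replicate 3 is the lowest of the 26D points.

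Only part of the B cell receptor pathway list was in the module. Outside it, LYN, BLK, PIK3AP1, BCL10, INPP5D, PTPN6 and SWAP70 also met every condition and were left out only by the limit of 150. LYN had S of 15.3, 21.0 and 17.0 at 1D and 25.8 to 34.1 in the older squabs. The other genes of this list outside the module failed a condition. In the lists below too, a gene that is no member may have met the conditions. Of 24 measured signalling genes, 7 were members, 7 were called higher at 13D and 3 at 26D, and none was called lower. The median log2 fold changes were 0.89 and 0.96, with 0.00 and 0.02 over all mRNAs. Here and in the pathway lists below, counts of calls and medians include the members. Members were chosen for a rise in S, so nothing is read from the distance to all mRNAs. Of the 7 members in this list, PLCG2 and PIK3CD were called at 13D alone, BLNK and RASGRP1 at 26D alone, and NFATC1 in both comparisons. SYK and PTPRC were called in neither. Of the 4 called genes outside the module the kinase BTK had a log2 fold change of 1.19 at 13D, and the others were the Ras activator RASGRP3 (1.31), the kinase PRKCB (1.04) and the adaptor LAT2 (1.15), none of them called at 26D. Of the receptor complex and co-receptors 4 were measured, CD79B was the only member, and LAPTM5, a lysosomal protein that lowers receptor levels in mammals, was called at 26D alone with a log2 fold change of 1.41. CD79A was not matched by symbol.

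DNA repair and replication supplied 13 members, at 2.06 to 2.99 times 1D (median 2.33). UNG, the glycosylase that removes uracil from DNA, had the highest ratio of them. It read 3.81, 2.32 and 4.57 at 1D, 8.76, 11.4 and 16.2 at 13D, and 13.3, 8.24 and 6.03 at 26D, with a log2 ratio of 26D to 13D of -0.40, which is one of the lowest among the members. MSH6, a protein of mismatch recognition, read 1.46, 0.797 and 1.14 at 1D, 2.70, 2.76 and 2.42 at 13D, and 2.53, 2.87 and 1.81 at 26D. MSH6 was at 2.22 times 1D, with its highest 1D squab below its lowest older squab, 26D replicate 3.

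The other repair and replication members were MCM9, a helicase of recombination repair (2.46 times 1D), the glycosylase NEIL1 (2.53), the primase PRIMPOL (2.29), the helicase ZGRF1 (2.84), ERCC6 of transcription-coupled repair (2.13), MRNIP (2.39) and PARPBP (2.06). They also included SLBP, which binds the stem-loop of histone mRNAs (2.40), the nucleoside kinase DCK (2.33) and CDCA7 (2.33). In all 13, the lowest of the 6 older values was in 26D replicate 3. The same held for 54% of all members and 23.3% of all mRNAs with a mean of at least 5 TPM.

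In the list of immunoglobulin diversification and DNA repair, 17 genes were measured and 4 were members. At 13D 7 were called higher, and at 26D 2, with none lower and median log2 fold changes of 0.97 and 0.95. Outside the module, DNTT, which adds untemplated bases at V(D)J junctions, was called in both comparisons, at 1.96 and 2.5. BRCA2 (1.47) and the translesion polymerase POLH (1.21) were called at 13D alone.

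The cell division members were at 2.01 to 2.62 times 1D. They were the spindle pole protein ASPM, the inhibitor of the anaphase-promoting complex FBXO5, the cohesin protector SGO1, the abscission factor MITD1, CEP170, DEPDC1B and PIMREG. MITD1, one of the 3 most abundant members at 357 TPM, had S of 14.0, 17.8 and 18.4 at 1D, 28.6, 31.5 and 29.4 at 13D, and 44.1, 40.3 and 27.5 at 26D. ASPM read 5.97, 4.95 and 6.92 at 1D, 12, 13.4 and 14.0 at 13D, and 14.0, 11.5 and 7.01 at 26D, where the lowest older squab almost met the highest 1D squab. In 6 of these 7 genes 26D replicate 1 was the highest library, and in 6 of 7 replicate 3 was the lowest older one. Over all members these shares were 38.7% and 54%. The 15 measured proliferation markers, none of them a member, summed to S of 40.5 to 95.3 at 1D, 116 to 142 at 13D, and 140.0, 118 and 79.3 in 26D replicates 1 to 3, with 4 called higher at 13D and 0 at 26D.

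The members of transcription and chromatin were led in abundance by BRWD1 (122 TPM), IKZF3 and BCL6. BCL6, a transcriptional repressor that germinal centre B cells need, read 2.37, 1.69 and 2.93 at 1D, 4.35, 5.63 and 6.49 at 13D, and 6.36, 6.46 and 4.16 at 26D. IKZF3 (Aiolos) of the Ikaros family read 3.27, 4.08 and 6.84 at 1D, 10.3, 9.90 and 8.88 at 13D, and 9.18, 12.5 and 7.01 at 26D, so that 1D replicate 3 all but reached 26D replicate 3. CIITA, the coactivator of MHC class II genes, read 0.704, 0.648 and 0.451 at 1D, 2.37, 1.26 and 1.12 at 13D, and 1.41, 1.5 and 2.22 at 26D. The progenitor factor MYB was at 2.44 times 1D, BATF at 3.07, ASCL2 at 3.11 and the deacetylases HDAC9 and HDAC11 at 2.58 and 2.08, and these were named after their values were seen.

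Of 19 measured B lineage transcription factors, 2 were members, 3 were called higher at 13D and 1 at 26D, and none was called lower, with median log2 fold changes of 0.75 and 0.73. BACH2, which holds back plasma cell differentiation in mice, was called at 13D only, at 1.04. Of 12 measured antigen presentation and co-stimulation genes, CIITA was the only member. CD83, a surface protein of activated B cells and dendritic cells, was called in both comparisons, at 1.88 and 2.46, but was no member. CD74 was neither called (0.63 and 1.29) nor a member. Its S was 57.2 to 87.7 at 1D and 100 to 206 in the older squabs. Its mean of 180 at 26D against 113 at 13D broke the bound between these ages. The study, by another test, counted CD79B, BCL6, CD83 and CD74 as differentially expressed, with higher levels at 13D and 26D.

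Receptors for cytokines and chemokines were a further set. CXCR4, the receptor for CXCL12, averaged 307 TPM and read 8.43, 14.9 and 12.1 at 1D, 22.5, 29.9 and 30.1 at 13D, and 59.4, 33.5 and 19.3 at 26D. The 26D squabs differed among themselves more than the 13D mean did from the 1D mean. CXCR5, which guides B cells to follicles in mammals, was among the steadiest in older squabs. It read 0.684, 0.798 and 1.15 at 1D, 1.9, 1.85 and 1.79 at 13D, and 1.87, 2.12 and 1.69 at 26D. IL21R, the interleukin 21 receptor, read 0.371, 0.205 and 0.363 at 1D, 0.643, 0.621 and 0.878 at 13D, and 0.808, 1.09 and 0.955 at 26D. IL16, the precursor of a CD4-binding cytokine, was 2.61 times its 1D level. The receptor subunits IL20RA and IL17RA were at 3.66 and 2.1 times 1D, and were named after their values were seen.

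The death receptor FAS read 0.855, 0.751 and 0.511 at 1D, 1.88, 1.30 and 1.54 at 13D, and 1.42, 1.31 and 2.17 at 26D. It was one of only 4 members, with IL12RB2, THEMIS and PLEK, highest in 26D replicate 3. The ligand TNFSF11 (RANKL), the lysophospholipid receptor GPR174, the peptidase MME (CD10), the serotonin receptor HTR2A and the endosomal adaptor TASL were in the same group, at 2.02 to 3.60 times 1D.

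The 24 measured genes of the cytokine and chemokine list held 5 members. At 13D 6 were called higher and 2 lower, at 26D 7 higher and 0 lower, and the median log2 fold changes were 0.34 and 0.52. For called lower genes the share of all mRNAs was 7.6% at 13D and 5.34% at 26D. Outside the module, TNFRSF13C, the receptor for the B cell survival factor BAFF, was called in both comparisons, at 2.0 and 2.58. TNFSF13B, which encodes BAFF, was called at 26D alone at 1.53, as was the chemokine receptor CCR6 at 2.03. Of 17 measured NF-kappaB and survival genes FAS was the only member. Outside the module, BCL2A1 was called higher (1.99 and 3.57) and BCL2, a related survival protein, lower (-1.39 and -1.45), both in each comparison.

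The 12 members of actin, adhesion and small GTPases included genes known from muscle. ACTR3B, a form of the Arp3 subunit that nucleates branched actin, had the highest ratio of them, 5.96 times 1D. It read 3.93, 3.10 and 3.17 at 1D, 17.8, 16.3 and 22.9 at 13D, and 32.1, 20.2 and 12.3 at 26D. NEBL, nebulette, an actin-binding protein of the heart in mammals, read 0.906, 1.92 and 1.38 at 1D, 7.55, 8.93 and 7.02 at 13D, and 4.29, 12 and 6.33 at 26D. Smooth muscle markers ran the other way: 6 of the 7 measured were called lower at 13D and 4 at 26D, and their summed S was 30.7 to 50.4 at 1D, 4.16 to 9.43 at 13D and 3.64 to 15.4 at 26D.

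DOCK2, the activator of Rac in lymphocyte migration, read 3.47, 3.55 and 3.21 at 1D, 7.96, 7.50 and 6.32 at 13D, and 8.14, 8.81 and 7.60 at 26D. DOCK10, a relative that acts on Cdc42 and Rac, read 2.14, 2.28 and 2.38 at 1D, 4.66, 4.17 and 4.21 at 13D, and 5.35, 5.74 and 5.33 at 26D. The spread within each age was narrow in both. ARHGAP15, which turns Rac off, read 6.39, 8.54 and 7.89 at 1D, 18.4, 20.3 and 17.2 at 13D, and 29.6, 23.8 and 15.2 at 26D. CYFIP2 of the WAVE complex was at 2.70 times 1D, the Ras regulator RASAL1 at 3.64 and the collagen-binding integrin chain ITGA10, the least abundant member, at 3.78.

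Of 17 measured adhesion and migration genes, 3 were members, 3 were called higher at 13D and 5 at 26D, and none was called lower, with median log2 fold changes of 0.67 and 0.80. The integrin chain ITGA4 and the hyaluronan receptor CD44 were called at 26D alone, at 1.75 and 1.66, and the sphingosine phosphate receptor S1PR4 at 13D alone, at 1.04. S1PR4 lay near the floor, with a mean of 0.70 TPM and 3 libraries under 0.5 TPM, so the size of its change is poorly determined.

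Enzymes of glycan synthesis and proteins of membrane traffic made up 17 members, chosen as groups after the values were seen. ST6GAL1, which adds the sialic acid recognised by the B cell lectin CD22, was even at 1D (1.21, 1.25 and 1.25) and read 2.96, 3.82 and 4.49 at 13D and 5.04, 3.42 and 2.11 at 26D. FUT8, the core fucosyltransferase, was at 2.46 times 1D, and MGAT4A had among the highest log2 ratios of 26D to 13D, 0.48. IGF2R, the mannose 6-phosphate receptor that sorts lysosomal enzymes, read 4.82, 4.29 and 4.96 at 1D, 11.3, 12.2 and 14.0 at 13D, and 16.9, 18.1 and 12.1 at 26D. STX7, a SNARE of late endosomes, was the most abundant of them (292 TPM) at 2.30 times 1D. LAMP3 (2.45), the Rab activators DENND5B (3.14) and DENND3 (2.85), the vesicular nucleotide transporter SLC17A9 (3.18), RUBCNL of autophagy (2.21) and WDFY4 (2.17), which dendritic cells of mice need for cross-presentation, were also in this set.

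Several of the highest ratios belonged to genes best known from other tissues. RBM24, an RNA-binding splicing regulator known from heart and skeletal muscle, had S of 1.26, 0.554 and 1.04 at 1D, 6.59, 7.54 and 7.06 at 13D, and 7.89, 7.11 and 3.94 at 26D. FNDC5, the precursor of irisin, read 0.0904, 0.169 and 0.0884 at 1D, 0.754, 0.735 and 0.472 at 13D, and 0.722, 0.667 and 0.589 at 26D. SERPINB5 (maspin) read 0.477, 0.779 and 0.308 at 1D, 2.88, 1.75 and 2.32 at 13D, and 6.41, 1.5 and 1.45 at 26D. For SERPINB5 a single 26D squab thus carried most of the 26D mean of 3.12 ± 2.85 (SD, n = 3).

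Unnamed loci were found at both ends of the ranking. LOC110359662 read 0.142, 0.102 and 0.107 at 1D, 1.23, 0.342 and 0.663 at 13D, and 0.805, 0.944 and 0.267 at 26D, the widest range of any member among the older squabs (4.62-fold). LOC102084531 read 0.938, 1.00 and 1.04 at 1D, 5.91, 4.29 and 4.65 at 13D, and 5.46, 5.89 and 3.14 at 26D. LOC102089868, the most abundant member at 395 TPM, was near the lower limit, with S of 16.4, 18.9 and 21.8 at 1D, 29.6, 32.0 and 43.0 at 13D, and 61.9, 36.1 and 27.9 at 26D.

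Between 13D and 26D the members were flat by selection. The median log2 ratio of 26D to 13D was 0.04, with 83 members higher and 67 lower at 26D, and the libraries of both ages overlapped for 147 of 150. The highest ratios were those of CHGB, chromogranin B of secretory granules, and VPREB3, both 0.50. CHGB read 0.371, 1.20 and 0.452 at 1D, 2.29, 2.42 and 1.40 at 13D, and 3.04, 2.6 and 3.00 at 26D. The lowest were those of the calcium-binding membrane protein MCTP1 (-0.46) and LOC102097778 (-0.42). MCTP1 read 0.359, 0.210 and 0.190 at 1D, 0.981, 0.581 and 0.712 at 13D, and 0.775, 0.374 and 0.509 at 26D.

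The members differed by age through their selection, and they also differed between squabs of the same age. Relative to each member's mean at 1D, their median level was 0.92, 0.96 and 1.07 in 1D replicates 1 to 3, 2.41, 2.52 and 2.38 at 13D, and 2.80, 2.70 and 1.92 at 26D, while the median of all mRNAs with a mean of at least 5 TPM stayed between 0.98 and 1.14. In these medians the 13D squabs lay closer together than the 26D squabs. Single members could still spread widely at 13D, such as SYK with S of 18.4, 10.8 and 10.1. 26D replicate 1 was the highest library for 58 members (38.7%) and for 26.1% of all mRNAs at that level. Of all those mRNAs, 9.82%, 12.6% and 10.2% peaked in 1D replicates 1 to 3. The choice barred members from a peak at 1D, so these shares cannot be set against each other. 26D replicate 3 was the lowest of the older libraries for 81 members (54%, against 23.3% of all mRNAs at that level). Within 1D, replicate 3 was the highest for 75 members (50%, against 37.7%). The ratio of the highest to the lowest library was 1.51 at the median within 1D and 1.86 over the 6 older libraries. The latter ratio spans more libraries and both older ages, so these values do not compare the spread within an age. Leaving out 26D replicate 1 or 3 from the choice kept 120 or 117 of the 150, and leaving out 1D replicate 3 kept 88.

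Markers of other cell types moved between ages and between squabs. Of the 7 measured B lineage markers, 3 were members and held 78.6% to 86.1% of the list's summed S. The other 4 (PAX5, EBF1, BTK and TNFRSF13C) summed to 3.81, 4.75 and 7.74 in 1D replicates 1 to 3, 10.4 to 11.8 at 13D, and 12.6, 13.0 and 6.88 at 26D, so that 26D replicate 3 lay below 1D replicate 3. Of the 12 fibroblast and matrix markers 10 were called lower at 13D and 7 at 26D, and they summed to 91.6 to 147 at 1D, 27.8 to 33.6 at 13D, and 20.5, 15.9 and 43.1 at 26D. The 8 measured endothelial markers summed to 7.02 to 9.13, then 3.68 to 4.48, and 3.35, 2.86 and 7.91, with 3 called lower at 13D and 1 at 26D. The 11 measured myeloid markers, of which FLT3 alone was called higher, summed to 4.58 to 13.8, then 5.90 to 8.39, and 8.61, 8.04 and 16.6. The 7 measured epithelial markers summed to 19.2 to 47.3, then 18.6 to 21.7 and 18.6 to 20.9, with 2 called lower at 13D and 4 at 26D. The 10 measured interferon-induced genes summed to 16.8 to 28.5, then 10.6 to 14.5, and 11.9, 10.02 and 25.1 at 26D, with 3 called lower at 13D and 1 at 26D. Plasma cell markers summed to 38.1 to 41.0, then 28.2 to 36.1, and 80.3, 31.0 and 71.1 at 26D. Among them MZB1 was called higher in both comparisons and FKBP11 lower at 13D alone. Of the 26D squabs, replicate 3 had the lowest median of the members and the highest fibroblast, endothelial, smooth muscle, myeloid, interferon-induced and T cell sums. The part of such cell mixtures in the members' levels was not tested.

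**Figure D5:**
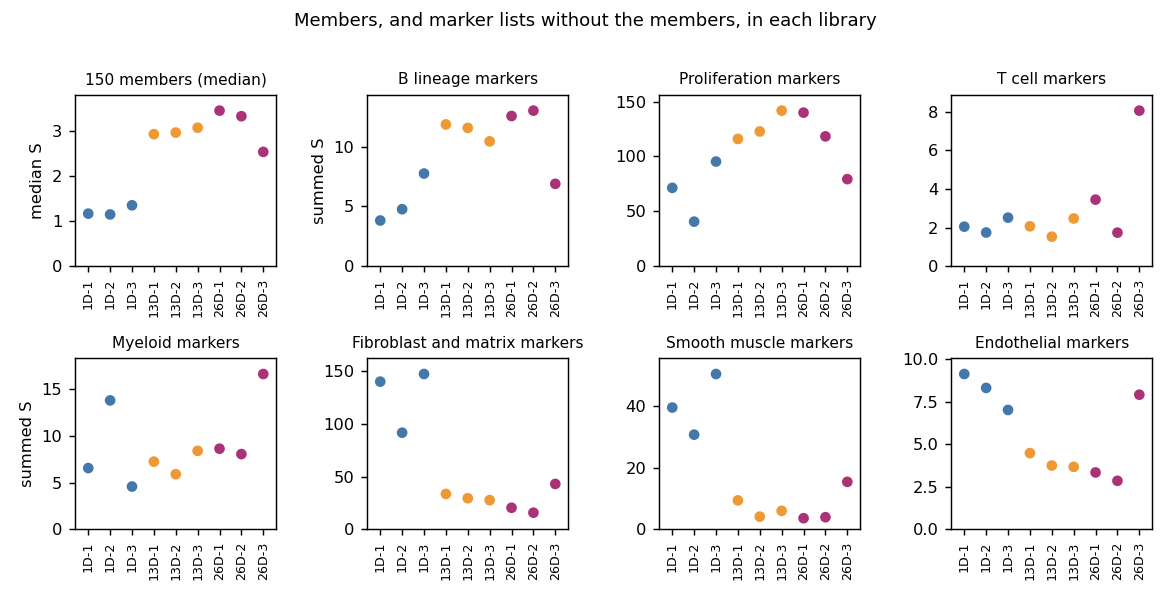
Median S of the 150 members, and summed S of 7 marker lists after leaving out any member (one panel each, linear scales from 0), in the 9 libraries, coloured by stage. In 26D replicate 3 the 4 B lineage markers that are no members sum to 6.88, within the range of the 1D libraries, and the T cell, myeloid, fibroblast, smooth muscle and endothelial lists are the highest of the older libraries.

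Some members were neighbours in the genome. In the RefSeq gene order of the assembly bColLiv1.pat.W.v2, in which 148 members were placed among protein-coding genes, 6 pairs had no gene between them and 13 pairs at most 2, involving 23 members. Among the pairs with none between were TEC and TXK, TXK and NIPAL1, SLBP and FAM53A, NUP210 and HDAC11, and LOC102091284 and DOCK10. IL12RB2 had 1 gene between it and SLC35D1, a nucleotide sugar transporter at 3.00 times 1D. TXK read 0.491, 0.450 and 0.584 at 1D, 2.31, 1.67 and 0.797 at 13D, and 2.11, 1.16 and 1.25 at 26D. Like its neighbour TEC it was lowest of the older squabs in 13D replicate 3. How many such pairs other sets of mRNAs hold was not counted.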

How the data were processed

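Total BF RNA of 9 squabs, 3 each at 1D, 13D and 26D, was sequenced. The authors mapped reads with STAR 2.6.0c to the pigeon assembly Cliv_1.0, assembled transcripts with Cufflinks 2.1.1, merged them with TACO and quantified them with Kallisto. The authors deposited TPM, with minimums of 0.5 TPM (mRNAs) and 0.1 TPM (lncRNAs) that 1 library had to pass. Values came from all 18 columns. The study states read totals per library, but TPM keep no counts, so no counting error of a value can be given. The TPM of both tables summed to 991214 to 997459 per library.

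Members were chosen by S as described, and members, gene lists and roles were chosen with earlier results of these data known. Each stage pair was fitted with limma 3.58.1 (R 4.3.3, eBayes with trend) on log2(scaled TPM + 0.5) of its 6 libraries, where scaled TPM is S times the mean of the 9 library medians. Calls needed a Benjamini-Hochberg adjusted p under 0.05 over 13072 mRNAs and an absolute log2 fold change over 1. limma stood in for edgeR, which the authors used and which needs counts. Fold changes on this scale understate the change of low mRNAs. Tested on simulated data with 200 of 13072 mRNAs changed, the fit recovered 84 of 100 at a log2 change of 2 and 95 of 100 at 3 for 13D vs. 1D, and 81 and 93 for 26D vs. 1D. These changes were larger than those of most members, whose median log2 ratio was 1.29. Smaller changes were not simulated, and the simulated noise was independent between mRNAs. The recovery therefore does not apply to most members. Replicate numbers did not mark shared animals and were not used as pairs. Symbols were available for 12387 of the mRNA identifiers. Plots used matplotlib 3.10.9 in Python 3.11.15.

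Named with values were the 12 members with the highest ratio, members of the 8 pathway lists (at most 6 a list, by TPM), CD79B, BCL6, CD83 and CD74 for their place in the study, the 3 most abundant members, those at either end of the ratio of 26D to 13D and those at the limit. Of called pathway genes outside the module, at most 3 a list were named, by TPM. Alternatives were other scalings, pseudocounts, filters and limits, all libraries in one fit, a replicate block, eBayes without trend and leaving out each library. Promoter sequences and coordinates were not analysed here. Some items of the named groups are not reported here.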

Additional observations from a re-analysis of the deposited data

How the results depend on the processing

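The choice of members put every older S above every 1D S. Only TPM as deposited or median-of-ratios factors could therefore change the sign of a member's change. None of the log2 fold changes of the 24 members tested changed sign under any alternative. Of 720 such values, 582 stayed on their side of the threshold, 36 crossed it upwards and 102 downwards. The number of members called higher in 13D vs. 1D was 121 (1.97% of all mRNAs called higher). It ranged from 85 to 134 under the alternatives that kept all libraries, but from 21 to 123 when 1 library was left out. In 26D vs. 1D it was 82 (1.47% of all mRNAs). It became 13 with TPM as deposited (0.513%), 125 with all 9 libraries in one fit (2.46%) and 3 to 120 when 1 library was left out. With the replicate number as a block it was 38 at 26D (0.757% of all mRNAs) and 109 at 13D. Where no share of all mRNAs is given, a count does not tell the members from the test as a whole. The numbers pair no animals, and same-numbered libraries deviated from their stage means with correlations of -0.33 to 0.39. At the lowest counts of called members the share of all mRNAs called higher was lower too. It was 0.283% at 13D without 13D replicate 2, against 1.97% with all libraries. At 26D it was 0.0306% without 26D replicate 2, against 1.47%. The members were chosen by these contrasts, so nothing is read from the counts of called members. The choice of members kept 25 of 150 with TPM as deposited, 52 with TPM rescaled to one mRNA total per library, a setting added after the data were seen, and 88 to 133 when 1 library was left out. Other limits and median-of-ratios factors kept 111 to 145. The cause of these shifts was not tested. With no counts deposited, low values such as IL12RB2 at 1D carry an unknown counting error.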
